A study of Mus musculus with 4 samples.

Results

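The miR-181 family was represented by 10 of the 1907 mature mouse miRNAs listed in a small RNA sequencing table of pluripotent cells, and all 10 were chosen by name. Of these, 6 come from the miR-181a/b loci on chromosomes 1 and 2, and 4 come from the miR-181c/d locus on chromosome 8. The comparison of the loci asked whether miRNAs that share a seed also shared their levels when embryonic stem (ES) cells left the naive for the primed state of pluripotency. Mouse E14Tg2A ES cells, an established line of 129/Ola origin, were maintained either in 10% fetal calf serum with LIF ("serum") or in "2iL". The latter is a serum-free N2/B27 medium with LIF, the MEK inhibitor PD0325901 and the GSK3 inhibitor CHIR99021, which holds ES cells in the ground state. Epiblast-like aggregates (ELA), which model primed pluripotent cells, were obtained from each culture after 2 days in suspension in chemically defined minimal medium without LIF. No engineered allele was named in the labels of the 4 groups, called ES serum, ES 2iL and, for the aggregates from these cultures, ELA serum and ELA 2iL. Each group was 1 library, made from RNA of 3 sets of experiments pooled before sequencing, so no spread between cultures could be measured.

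MicroRNAs are cut from hairpins in a longer primary transcript, and each hairpin can give a 5p and a 3p mature strand, of which one usually dominates. The dominant strand is loaded into an Argonaute protein and guides it to messenger RNAs that pair with its seed, bases 2 to 8, so guides with the same seed have largely shared predicted targets. The miR-181 family is best known from lymphocytes, where miR-181a tunes antigen receptor signalling in developing T cells, and its members are also present in brain and other tissues.

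The 5p strands are shown first because they carry the seed that defines the family, printed here in capitals (RefSeq mature sequences, GRCm38.p6 annotation, 5′ to 3′):
mmu-miR-181a-5p: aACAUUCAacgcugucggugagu
mmu-miR-181b-5p: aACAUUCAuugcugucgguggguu
mmu-miR-181c-5p: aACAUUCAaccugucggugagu
mmu-miR-181d-5p: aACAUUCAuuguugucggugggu

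All 4 had the seed ACAUUCA, and none of the other listed miRNAs with a RefSeq sequence had it. With positions counted from the 5′ end, mmu-miR-181b-5p and mmu-miR-181d-5p differed by C12U and 1 additional base at the 3′ end of the former. The substitutions between mmu-miR-181a-5p and mmu-miR-181b-5p were A9U, C10U and A21G. Removing base 11 of mmu-miR-181a-5p gave the sequence of mmu-miR-181c-5p. By sequence, therefore, miR-181a pairs with miR-181c and miR-181b with miR-181d, whereas by position miR-181a lies beside miR-181b and miR-181c beside miR-181d.

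The 3p strands are shown because they are the only members that tell the chromosome 1 hairpins from those of chromosome 2 (seed in capitals):
mmu-miR-181a-1-3p: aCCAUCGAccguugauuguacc
mmu-miR-181a-2-3p: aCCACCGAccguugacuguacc
mmu-miR-181b-1-3p: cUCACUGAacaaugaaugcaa
mmu-miR-181b-2-3p: cUCACUGAucaaugaaugcaaa
mmu-miR-181c-3p: aCCAUCGAccguugaguggacc
mmu-miR-181d-3p: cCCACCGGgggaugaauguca

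The 3p strands did not share 1 seed. mmu-miR-181a-1-3p and mmu-miR-181c-3p, from different chromosomes, had the same seed CCAUCGA and differed by U16G and U19G. The 3p strands of both miR-181a hairpins differed by U5C and U16C, and the first of these lies within the seed, so their seeds were not the same. The 3p strands of both miR-181b hairpins shared UCACUGA.

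In the mm9 assembly, the build to which the reads had been mapped, Mir181a-1 lies at chr1:139863032-139863118 and Mir181b-1 at chr1:139863216-139863295, both on the plus strand and intergenic, 97 bp apart. The nearest coding gene, A130050O07Rik, is 36182 bp from Mir181a-1. Mir181a-2 at chr2:38708255-38708330 and Mir181b-2 at chr2:38709350-38709438 are on the plus strand, 1019 bp apart, inside an intron of Nr6a1, a gene for an orphan nuclear receptor transcribed from the opposite strand. Mir181d at chr8:86702615-86702686 and Mir181c at chr8:86702762-86702867 are on the minus strand, 75 bp apart and intergenic. The nearest coding gene is Nanos3, a germ cell gene, 2164 bp from Mir181d. All 10 mature sequences were found in the mm9 hairpins.

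The 2 hairpins that make mmu-miR-181a-5p, with both mature strands in capitals, show why reads of this strand could not be assigned to chromosome 1 or 2, while the 3p strands differ:
Mir181a-1: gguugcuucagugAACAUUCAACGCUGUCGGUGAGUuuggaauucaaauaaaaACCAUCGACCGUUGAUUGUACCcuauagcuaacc
Mir181a-2: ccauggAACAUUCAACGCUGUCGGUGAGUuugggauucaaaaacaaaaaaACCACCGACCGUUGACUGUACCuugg

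mmu-miR-181b-5p likewise has 2 hairpins, and mmu-miR-181c-5p and mmu-miR-181d-5p have 1 each. How reads with 2 genomic matches, or with mismatches to so similar a sequence, had been treated was not given in the sources used here. Of the listed miRNAs, 51 had 2 or more RefSeq hairpins and 32 of these had at least 10 reads in ES serum, whereas 19 had fewer. One of the latter was mmu-miR-24-3p, which has 2 hairpins and had 4, 1, 0 and 0 reads, beside 8787 reads in ES serum for mmu-miR-27a-3p from the same cluster. A loss of reads with several matches would lower the levels of mmu-miR-181a-5p and mmu-miR-181b-5p relative to the miR-181c/d strands and was not tested. The 3p strands, which have 1 hairpin each, are therefore compared as well.

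The libraries held 587363 to 8056984 miRNA reads, a 13.7-fold range, and ELA 2iL was the shallowest, where 1 read was worth 1.70 RPM (reads per 1000000 miRNA reads of a library). The intervals given here are 95% intervals for counting error only. They do not hold the variation between cultures, and reads without molecular identifiers are not independent molecules. One label field exchanged ES 2iL and ELA serum relative to the sample titles, and the titles, which matched the table, were used. With the exchange, the effect of stage and the effect of medium would change places, and the lowest and highest sums of the primed markers given next would belong to ELA serum and ES 2iL, respectively. Markers typical of mouse ES cells, mmu-miR-291a-3p, mmu-miR-294-3p and mmu-miR-295-3p, summed to 41028 to 142214 RPM. Their sum was higher in ELA 2iL (109569 RPM) than in ES serum (61648 RPM), so it did not separate the labelled stages. The 4 markers of primed pluripotency, from the cluster of miR-302 and miR-367, summed to values from 67.6 RPM in ES 2iL to 32895 RPM in ELA serum. Between these, ES serum (5222 RPM) and ELA 2iL (5549 RPM) had similar sums, and all of these markers were listed. Of the blood list, relevant because lymphocytes express miR-181, 6 of 8 names were listed. The names not listed, mmu-miR-142-3p and mmu-miR-142-5p, are other names of the listed mmu-miR-142a-3p and mmu-miR-142a-5p. The list summed to 564 to 2014 RPM, most of it mmu-miR-142a-5p, while mmu-miR-142a-3p was at 0 reads in all 4 libraries and mmu-miR-223-3p was at most 5.11 RPM. The neural list summed to 477 to 871 RPM, the muscle list to 0 to 73.2 RPM, and the liver marker mmu-miR-122-5p was at 0. Their part in the results was not tested.

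The miR-181c/d locus supplied most miR-181 reads in every library, and its strands had lower values in ELA than in ES cells. The strand mmu-miR-181c-5p was at 3162 RPM in the ES serum library and 11821 in ES 2iL, against 603 in ELA serum and 1983 in ELA 2iL. It was the most abundant member in every library and the 19th most abundant of all listed miRNAs in ES 2iL, against the 94th in ELA serum. The 5p strand of the neighbouring hairpin, mmu-miR-181d-5p, was at 1032, 2252, 95.6 and 455 RPM in the same order. The opposite strand mmu-miR-181c-3p was at 272, 976, 52.4 and 111 RPM. For all 3, the libraries had the same order, from ES 2iL as the highest through ES serum and ELA 2iL to ELA serum as the lowest. How many of the other listed miRNAs had this order was not counted. In these bulk libraries, fewer cells with a miRNA and less of it per cell cannot be told apart. The last strand of the locus, mmu-miR-181d-3p, had 34, 23, 3 and 2 reads, and its ELA values rest on counts at or below 3 reads.

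**Figure D1:**
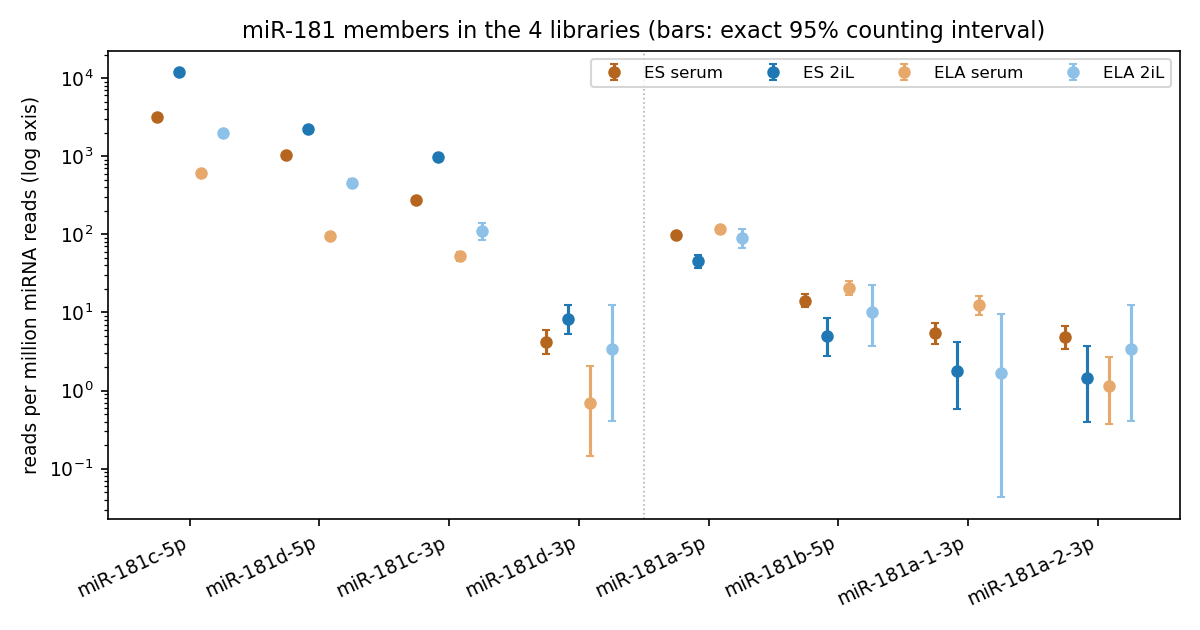
RPM (log axis) of the 8 members with more than 3 reads in at least 1 library; points are single libraries and bars exact 95% counting intervals, with the miR-181c/d locus left and the miR-181a/b loci right of the dotted line. For mmu-miR-181c-5p the points run from 603 RPM in ELA serum to 11821 RPM in ES 2iL, whereas for mmu-miR-181a-5p they run from 45.2 RPM in ES 2iL to 117 RPM in ELA serum.

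The mean level over the libraries was at least 5 on the log2(RPM + 1) scale, about 31 RPM, for 4 members, of which 3 belonged to the miR-181c/d locus and 1, mmu-miR-181a-5p, to the miR-181a/b loci. Among these 4, the 3 of the miR-181c/d locus were lower in ELA by at least 1 log2 unit in both media. Over all 302 miRNAs above the same level, 27 (8.94%) met this condition. The log2 difference of mmu-miR-181c-5p, ELA minus ES, was −2.39 in serum and −2.57 in 2iL, that is 5.24-fold (95% interval 5.04 to 5.46) and 5.96-fold lower (5.62 to 6.32). For mmu-miR-181d-5p it was −3.42 in serum and −2.31 in 2iL, or 10.8-fold (9.77 to 11.9) and 4.95-fold lower (4.38 to 5.62). For mmu-miR-181c-3p it was −2.35 and −3.13, or 5.19-fold (4.52 to 5.98) and 8.82-fold lower (6.90 to 11.5). Ordered by the mean of both media, mmu-miR-181d-5p had the lowest value of the 302 miRNAs, mmu-miR-181c-3p the 2nd lowest and mmu-miR-181c-5p the 6th lowest. The median over the 302 was −0.08. Beside these differences, the ES cell markers were lower in ELA in both media (41028 against 61648 RPM for serum, 109569 against 142214 RPM for 2iL), and the primed markers were higher. The neural markers also summed to less in ELA (477 against 657 RPM for serum, 548 against 871 RPM for 2iL). Of these, mmu-miR-9-5p was higher in ELA in 2iL (218 against 156 RPM) and lower in serum, whereas the others were lower in both media. The part of all these markers in the result was not tested.

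An additive limma fit of stage and medium over 599 miRNAs, chosen by a minimum of 10 reads reached in 2 or more libraries, had 1 residual degree of freedom, the difference between the stage effects in serum and in 2iL. The error of each miRNA was moderated towards that of all others (prior degrees of freedom 3.79), so most of it was borrowed. This fit called none of the 599 miRNAs by stage (0%) and none by medium (0%) at an adjusted p of 0.05, with 125 and 176 miRNAs below an unadjusted p of 0.05. Of the members, 7 were tested. The stage effect of mmu-miR-181c-5p was −2.48 ± 0.44 (SE), that of mmu-miR-181c-3p −2.74 ± 0.47 and that of mmu-miR-181d-5p −2.86 ± 0.51, each with a limma adjusted p of 0.133, the smallest for stage. With the reads recovered from the RPM steps, the quasi-likelihood test of edgeR called 13 miRNAs (2.17%) as lower in ELA. These 3 members were among them, with edgeR adjusted p-values of 0.00893, 0.00651 and 0.00651 in the same order, and of 0.0582 for each when edgeR used library totals in place of TMM factors and called no miRNA as lower (0%). They were also among the 18 miRNAs (3.01%) that limma called lower on TMM-scaled values and the 16 (2.67%) that DESeq2 called lower, and among 58 of 1202 miRNAs (4.83%) called lower by limma without a filter on reads. The call of the miR-181c/d strands by stage therefore depended on the scaling and on the filter on reads. With the filter, neither limma nor edgeR called them on library totals, and both did with TMM factors. Their direction was the same with each of 4 scalings. mmu-miR-181d-3p had a stage effect of −1.35 (limma adjusted p = 0.202).

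The miR-181a/b loci were present at far lower levels. Their 5p strands had stage effects of positive sign that did not pass the test, and their 3p strands rested on few reads. The strand mmu-miR-181a-5p had 98.8 RPM in ES serum, with 45.2 in ES 2iL, against 117 in ELA serum and 90.2 in ELA 2iL. mmu-miR-181b-5p was at 14.1, 5.06, 20.7 and 10.2 RPM, from 114, 14, 89 and 6 reads. For both, ELA serum was the highest library and ES 2iL the lowest, the reverse of the extremes of the miR-181c/d strands. The ES and ELA libraries overlapped, since ES serum lay above ELA 2iL. Both serum libraries lay above both 2iL libraries, but how many other miRNAs did so was not counted. In ELA, the intervals of the fold of 2iL over serum were 0.570 to 1.03 for mmu-miR-181a-5p and 0.177 to 1.12 for mmu-miR-181b-5p, and both include 1. In serum, mmu-miR-181a-5p was 1.18-fold higher in ELA (1.06 to 1.33) and mmu-miR-181b-5p 1.46-fold (1.09 to 1.94). In 2iL, the ratios were 2.00 (1.42 to 2.78) and 2.02 (0.636 to 5.59), and the latter interval includes no difference. Neither stage effect passed the test. It was 0.61 ± 0.47 for mmu-miR-181a-5p (limma adjusted p = 0.471) and 0.70 ± 0.45 for mmu-miR-181b-5p (adjusted p = 0.393). No alternative called them, the edgeR adjusted p being 0.464 and 0.493.

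**Figure D2:**
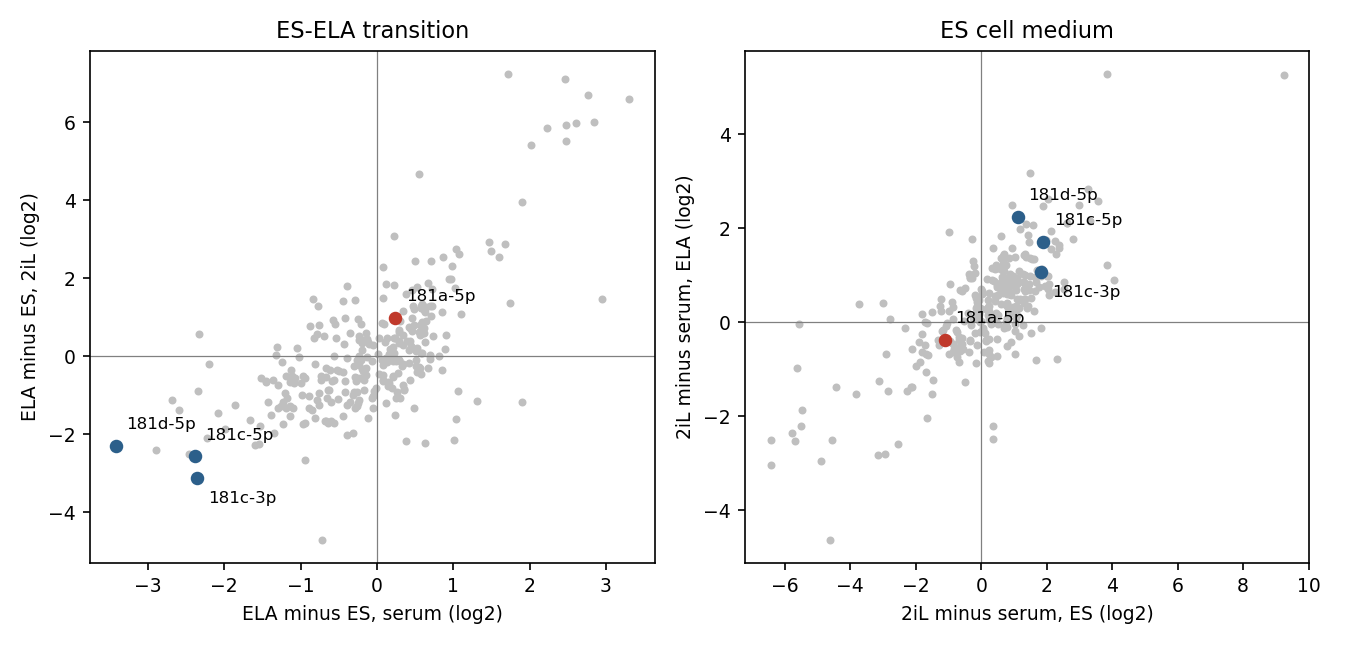
Log2(RPM + 1) differences of the 302 miRNAs with a mean of at least 5; left, ELA minus ES in serum (x) against 2iL (y), and right, 2iL minus serum in ES (x) against ELA (y), with 3 strands of the miR-181c/d locus in blue and mmu-miR-181a-5p in red. The blue points lie at −2.31 or below on both axes of the left panel and at 1.06 or above on both axes of the right panel.

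The difference between the loci was measured as a ratio within each library, which does not depend on how libraries are scaled. For each read of mmu-miR-181a-5p and mmu-miR-181b-5p together there were 37.1 reads (34.8 to 39.7) of mmu-miR-181c-5p and mmu-miR-181d-5p in ES serum and 280 (237 to 333) in ES 2iL. In ELA serum there were 5.08 (4.65 to 5.55), and in ELA 2iL 24.3 (18.7 to 32.1). The intervals of the 4 libraries did not overlap, and each ELA library was below the ES library of the same medium. The ratio was 7.31-fold lower in ELA than in ES cells in serum (6.54 to 8.17) and 11.5-fold lower in 2iL (8.32 to 15.8), a mean log2 difference of −3.20. In an exact two-sided permutation test over the 4 libraries p was 0.333, the smallest that 6 splits allow, so this design cannot reach 0.05. With the members paired by sequence instead of by locus, the ratio of mmu-miR-181c-5p to mmu-miR-181a-5p was 6.21-fold and 11.9-fold lower in ELA. That of mmu-miR-181d-5p to mmu-miR-181b-5p was 15.7-fold and 10.0-fold lower. Strands that differ by 1 removed base, or by C12U and 1 end base, thus had stage effects of opposite sign, none of which passed the limma test, whereas the 5p strands within each group of loci had the same sign. The 3p strands of the loci gave ratios of 26.8, 303, 3.82 and 22.3 in the same order of libraries. These rested on 83, 9, 60 and 3 reads of the miR-181a/b 3p strands. The 3p ratio was 7.03-fold lower in ELA in serum (4.81 to 10.2) and 13.5-fold lower in 2iL (2.30 to 55.7).

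**Figure D3:**
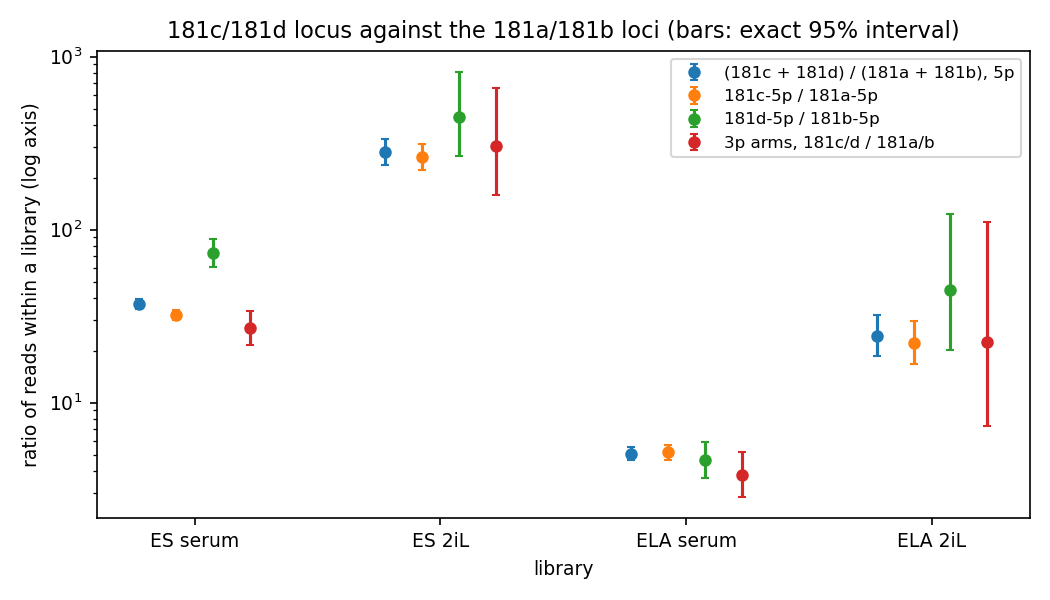
Reads of the miR-181c/d locus per read of the miR-181a/b loci within each library (log axis), for the summed 5p strands, for pairs matched by sequence and for the 3p strands; bars are exact 95% intervals for counting error. The summed 5p ratio is highest in ES 2iL at 280 and lowest in ELA serum at 5.08.

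The guides that share the seed ACAUUCA were also summed, since they act through the same seed. Together they made up 0.431% of miRNA reads in ES serum and 1.41% in ES 2iL, against 0.0836% in ELA serum and 0.254% in ELA 2iL. This sum was 5.15-fold lower in ELA in serum and 5.56-fold lower in 2iL, close to the values for the miR-181c/d strands that dominated it. The miR-181c/d strands were 97.4% of the sum in ES serum (Wilson 95% interval 97.2 to 97.5) and 99.6% in ES 2iL, against 83.5% in ELA serum (82.3 to 84.7) and 96.04% in ELA 2iL. mmu-miR-181a-5p made up 2.29%, 0.320%, 13.98% and 3.55% of it. The share of the miR-181a/b loci was therefore largest in the library with the lowest miR-181 sum, and even there most reads came from chromosome 8.

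**Figure D4:**
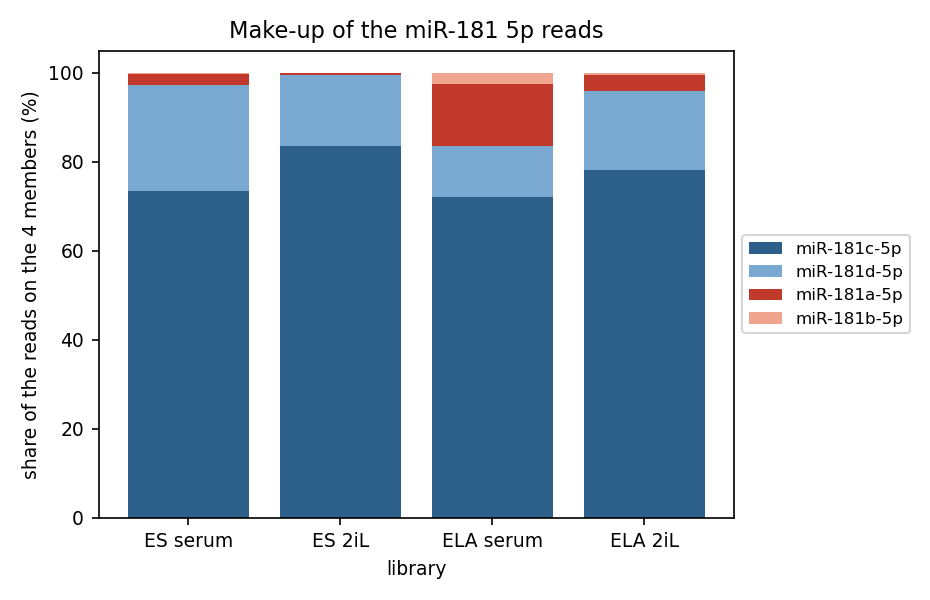
Share (%) of each of the 4 strands in the miR-181 5p reads of each library, as stacked bars. The miR-181c and miR-181d strands together take from 83.5% in ELA serum to 99.6% in ES 2iL.

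A further comparison concerned the medium in which the ES cells had been kept. The 3 abundant strands of the miR-181c/d locus were higher in 2iL than in serum by at least 1 log2 unit at both stages, a condition that 42 of the 302 miRNAs (13.9%) met. The median difference of the 302 miRNAs between media was itself 0.42, and 0.00 with TMM scaling, so that medium effects are also given relative to it. mmu-miR-181c-5p differed by 1.90 in ES cells and 1.72 in ELA, on average 1.81, or 1.39 above the median. The average was 1.68 for mmu-miR-181d-5p and 1.45 for mmu-miR-181c-3p, or 1.26 and 1.03 above the median. With TMM scaling only 1 of the 3, mmu-miR-181c-5p, kept a difference of at least 1 at both stages. The limma adjusted p-values were 0.114, 0.135 and 0.143. edgeR called 22 miRNAs (3.67%) higher in 2iL, none of them a member, and mmu-miR-181c-5p had an edgeR adjusted p of 0.0750. limma on TMM-scaled values called 19 (3.17%), again without a member. DESeq2 called 32 (5.34%), with mmu-miR-181c-5p among them (adjusted p = 0.0410). edgeR with library totals called 23 (3.84%), also with mmu-miR-181c-5p (adjusted p = 0.0431). limma without a filter on reads called 73 of 1202 (6.07%), with mmu-miR-181c-5p (adjusted p = 0.0196) and mmu-miR-181d-5p (0.0337). The low strand mmu-miR-181d-3p had a medium effect of 1.11 (limma adjusted p = 0.187). The blood list was also higher in 2iL, at 632 and 1634 RPM in ES cells and 564 and 2014 RPM in ELA, as was the ES cell list. Most of the former was mmu-miR-142a-5p, at 591 and 1605 RPM in ES cells and 549 and 1999 RPM in ELA, whereas mmu-miR-142a-3p from the same hairpin was at 0. The next most abundant blood marker, mmu-miR-155-5p, was lower in 2iL, at 22.4 RPM in ES cells (38.7 in serum) and 6.81 in ELA (13.0 in serum). The neural list summed to more in 2iL (871 against 657 RPM in ES cells, 548 against 477 RPM in ELA), but its members differed. mmu-miR-128-3p was higher in 2iL (570 against 225 RPM in ES cells, 284 against 180 RPM in ELA). mmu-miR-9-5p was lower (156 against 356 RPM in ES cells, 218 against 246 RPM in ELA), as was mmu-miR-9-3p at both stages. mmu-miR-124-3p was higher in ES cells (142 against 68.9 RPM) but not in ELA (44.3 against 45.3 RPM). The primed list was lower in 2iL (67.6 against 5222 RPM in ES cells, 5549 against 32895 RPM in ELA). The part of these markers in the medium effect was not tested.

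Of the 302 miRNAs, 7 (2.32%) were both lower in ELA in both media and higher in 2iL at both stages, and 3 of these 7 were the miR-181c/d strands. The other miRNAs were mmu-miR-467a-3p, mmu-miR-669a-3p, mmu-miR-291b-5p and mmu-miR-361-3p, the last 2 named after their values were seen. For the 5p strands of the miR-181a/b loci the medium values were negative and did not pass the test. mmu-miR-181a-5p was lower in 2iL by 2.19-fold in ES cells (1.81 to 2.66) and by 1.30-fold in ELA (0.975 to 1.75), an interval that includes 1. mmu-miR-181b-5p was 2.80-fold lower in ES cells (1.60 to 5.28) and 2.02-fold lower in ELA (0.893 to 5.66), where the interval again includes 1. The medium effects, −0.74 and −1.14, had limma adjusted p-values of 0.345 and 0.174. The ratio of the miR-181c/d to the miR-181a/b 5p strands was 7.54-fold higher in 2iL in ES cells (6.30 to 9.09) and 4.78-fold higher in ELA (3.62 to 6.40), with an exact permutation p of 0.667 over the 4 libraries.

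Within the chromosome 8 locus, the ratio of the 5p strands of neighbouring hairpins differed between single libraries by more than counting error. For each read of mmu-miR-181d-5p there were 3.07 reads of mmu-miR-181c-5p in ES serum (2.99 to 3.14) and 5.25 in ES 2iL (5.11 to 5.39), against 6.31 in ELA serum (5.68 to 7.02) and 4.36 in ELA 2iL (3.82 to 5.00). The ratio was 2.06-fold higher in ELA than in ES cells in serum (1.85 to 2.30) and 0.831 times that of ES cells in 2iL (0.725 to 0.956). The direction thus differed between media beyond counting error, but each value is 1 library against 1, and over all 4 libraries the exact permutation p was 0.667 for stage and 1 for medium. The ratio of mmu-miR-181a-5p to mmu-miR-181b-5p was 6.98, 8.93, 5.66 and 8.83 in the usual order, and all 4 intervals overlapped.

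**Figure D5:**
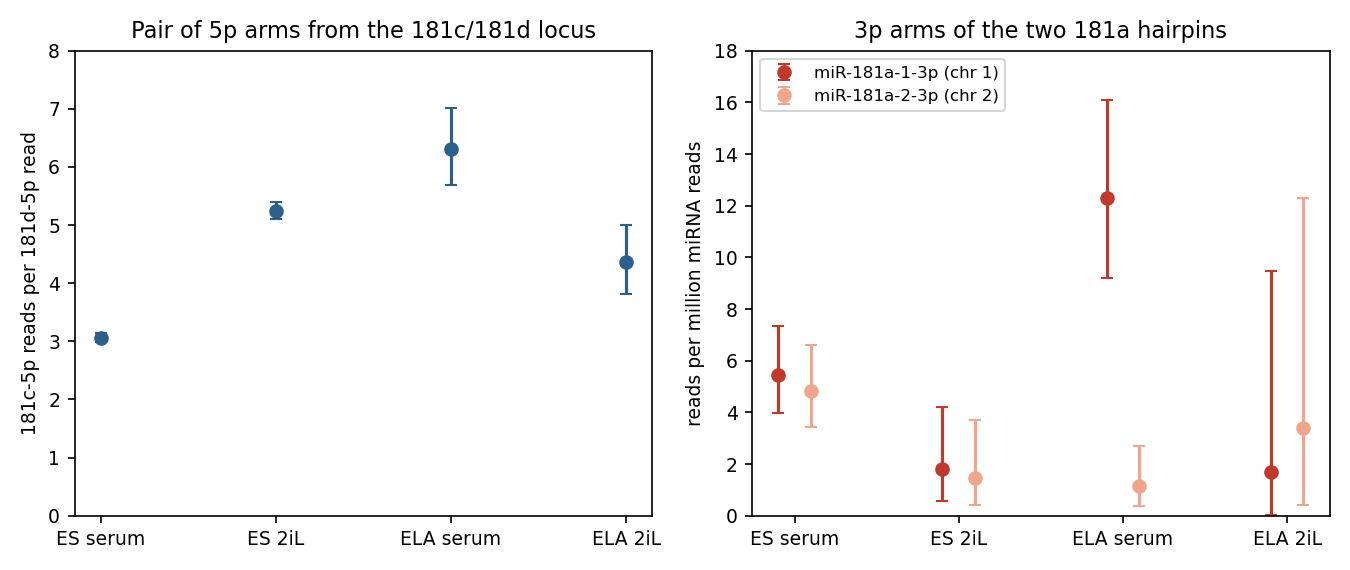
Left, reads of mmu-miR-181c-5p per read of mmu-miR-181d-5p in each library; right, RPM of the 3p strands of the chromosome 1 and chromosome 2 hairpins of miR-181a, with exact 95% counting intervals on both. The ratio on the left is 3.07 in ES serum and 6.31 in ELA serum, and on the right the strands separate only in ELA serum, at 12.3 and 1.16 RPM.

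The 5p strand prevailed in every hairpin that could be assessed. For miR-181c, reads of the 5p strand were 11.6 times those of the 3p strand in ES serum and 12.1 times in ES 2iL, against 11.5 times in ELA serum and 17.9 times in ELA 2iL. The last ratio was 1.48-fold that of ES 2iL (1.15 to 1.94) and rested on 65 reads of mmu-miR-181c-3p. For miR-181d, the 5p strand was 244 and 271 times the 3p strand in the ES libraries, with intervals of 175 to 353 and 180 to 428. The hairpin of miR-181d is printed to show these strands in capitals:
Mir181d: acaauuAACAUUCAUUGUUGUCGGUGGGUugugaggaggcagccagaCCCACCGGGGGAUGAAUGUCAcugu

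For miR-181a, the 5p strand was 9.59, 13.9, 8.69 and 17.7 times both 3p strands together. The hairpins 75 bp apart on chromosome 8 thus differed in the 5p to 3p ratio in ES cells, where their intervals did not overlap, while miR-181a and miR-181c had ratios of like size. The miR-181a ratios in ES 2iL and ELA 2iL rested on 9 and 3 reads of the 3p strands. A loss of 5p reads with several matches would lower the miR-181a ratios and was not tested.

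Only the 3p strands could separate the chromosome 1 from the chromosome 2 locus. mmu-miR-181a-1-3p, from chromosome 1, had 44 reads in ES serum and 5 in ES 2iL, against 53 in ELA serum and 1 in ELA 2iL. mmu-miR-181a-2-3p, from chromosome 2, had 39, 4, 5 and 2 reads. The strands were about equal in ES serum, with a ratio of 1.13 (0.716 to 1.78), and differed in ELA serum, with a ratio of 10.6 (4.27 to 34.0). From ES to ELA in serum, mmu-miR-181a-1-3p was 2.25-fold higher (1.48 to 3.44) and mmu-miR-181a-2-3p 4.17-fold lower (1.64 to 13.6). Their ratio was 9.40-fold higher (3.26 to 32.7), for counting error between single libraries. Over all 4 libraries the exact permutation p of this ratio by stage was 1. In 2iL the counts were too low for a direction to be read, the corresponding interval running from 0.00567 to 11.3. By limma the stage effect of mmu-miR-181a-1-3p was 0.49 ± 0.50 (adjusted p = 0.587) and its medium effect −1.75 ± 0.50 (adjusted p = 0.128), with 0.0333 for the latter on TMM-scaled values and 0.0254 without a filter on reads. These fits called 55 of 599 (9.18%) and 57 of 1202 miRNAs (4.74%) lower in 2iL. The other alternatives did not call mmu-miR-181a-1-3p by medium, with an adjusted p of 0.0897 by edgeR, 0.167 by edgeR on library totals and 0.168 by DESeq2. mmu-miR-181a-2-3p did not pass the filter on reads, and without the filter its limma adjusted p-values were 0.929 by stage and 0.948 by medium.

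The last members were at or near 0. mmu-miR-181b-1-3p had 2 reads in ELA serum and 0 in the other libraries. mmu-miR-181b-2-3p had 0 reads in all 4, which allows up to 0.372 RPM in ES serum, with 1.08 in ES 2iL, against 0.696 in ELA serum and 5.11 in ELA 2iL, taking 3 reads as the limit. They and mmu-miR-181a-2-3p were the 3 members that did not pass the filter on reads. At this depth, a 3p strand of miR-181b as rare relative to its 5p strand as that of miR-181d would not have been detectable.

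The only other listed miRNAs with hairpins within 50 kb of a member were those of the cluster of Mir23a, Mir27a and Mir24-2, 29550 to 29847 bp from Mir181c on the opposite strand of chromosome 8. mmu-miR-23a-3p was at 250 RPM in ES serum, with 321 in ES 2iL, against 40.6 in ELA serum and 123 in ELA 2iL. It was 6.17-fold lower in ELA in serum (5.28 to 7.24) and 2.62-fold in 2iL (2.06 to 3.38), but its stage effect of −1.99 did not pass the test (limma adjusted p = 0.153, edgeR 0.0567). mmu-miR-27a-3p was at 1091, 820, 299 and 341 RPM, with a stage effect of −1.57 (limma adjusted p = 0.183). Its medium differences, 2iL minus serum, were −0.41 in ES cells and 0.19 in ELA, and those of mmu-miR-23a-3p were 0.36 and 1.57. mmu-miR-27a-5p was at 59.2, 21.3, 11.8 and 17.0 RPM. The remaining mature miRNAs of this cluster, mmu-miR-23a-5p, mmu-miR-24-2-5p and mmu-miR-24-3p, had at most 4 reads in any library.

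Likeness of pattern was measured over the 4 libraries as the Euclidean distance between centred log2(RPM + 1) values, among 298 miRNAs outside the family. With 4 points this is a description only. Closest to the mean of the miR-181c and miR-181d 5p strands were mmu-miR-669a-3p (distance 0.082), mmu-miR-467a-3p (0.658), mmu-miR-466c-3p (0.937), mmu-miR-466b-3p (1.04) and mmu-miR-23a-3p (1.10), against a median distance of 3.07. The first 4 belong to families with many near-identical hairpins in an intron of Sfmbt2 on chromosome 2, so their reads may be divided among copies. mmu-miR-669a-3p was at 267, 802, 35.0 and 150 RPM. Closest to the mean of the miR-181a and miR-181b 5p strands were mmu-miR-434-5p (0.158), mmu-miR-149-5p (0.162), mmu-miR-370-3p (0.287), mmu-miR-652-3p (0.353) and mmu-miR-411-5p (0.400), with a median distance of 1.89. Of these, mmu-miR-434-5p, mmu-miR-370-3p and mmu-miR-411-5p come from the imprinted Dlk1-Dio3 region of chromosome 12. mmu-miR-434-5p was at 4270, 2141, 6001 and 3734 RPM, so the likeness holds for the pattern and not for the level.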

How the data were processed

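Small RNA libraries of 4 groups, with 1 library each, were compared. The authors trimmed adaptors with Trimmomatic, mapped reads with Bowtie to mm9, summarised them over the mature miRNAs of miRBase 20 with featureCounts and deposited RPM values, so that levels are shares of a library. Mapping settings were not given in the sources used here. No table column was left unused (0).

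All values (100%, tolerance 0.01) were whole multiples of 1 read, and reads were recovered from these steps. Because the deposited values were RPM and not counts, the main test was limma 3.58.1 on log2(RPM + 1) in an additive model of stage and medium. edgeR 4.0.16 and DESeq2 1.42.0 on recovered reads were alternatives (R 4.3.3), with p-values adjusted by Benjamini-Hochberg over all miRNAs tested. Fold and ratio intervals were exact, conditional on reads, and shares had Wilson intervals (scipy 1.17.1). The limma and edgeR fits, but not that of DESeq2, were also run on simulated reads, and no result given here rests on that run.

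The members and lists were chosen with earlier results of these data known. Named miRNAs were the 10 members, others with a member's seed, those with hairpins within 50 kb, the 5 nearest in pattern to each group of loci, and the markers. Another 2, mmu-miR-291b-5p and mmu-miR-361-3p, were named after their values were seen. Coordinates are mm9, and sequences are from RefSeq, where all 10 members matched. The alternatives tried were other scalings, pseudocounts, filters, strand choices and tools.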

Additional observations from a re-analysis of the deposited data

Results flagged for a closer look

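In 2 members the log2(RPM + 1) difference had opposite signs in the 2 pairs of libraries of a contrast, with 1 library against 1 in each pair, and these differences were not tested across replicates. For mmu-miR-181a-1-3p, ELA minus ES was 1.04 for the serum libraries and −0.05 for those of 2iL, which differ by −1.10. The 2iL value rests on 5 and 1 reads and was above 0, at up to 0.12, with other scalings. For mmu-miR-181a-2-3p, ELA minus ES was −1.43 for serum and 0.85 for 2iL, which differ by 2.28. The same 4 values of mmu-miR-181a-2-3p gave 2iL minus serum as −1.26 in ES cells and 1.03 in ELA, also a difference of 2.28. Its reads were 39, 4, 5 and 2 in ES serum and 2iL and in ELA serum and 2iL, and the interval of its fold between the 2iL libraries, 0.213 to 16.4, includes 1.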

How the results depend on the processing

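The median stage effect of the 3 abundant miR-181c/d strands, −2.74, was −2.57 with TMM factors, −2.53 with DESeq2 size factors, −2.66 when the 5 most abundant miRNAs were left out of the totals, −2.68 with a pseudocount of 5 RPM and −2.61 over all members of the locus. Their median medium effect, 1.68, was 1.26, 1.30, 1.57 (without those 5 miRNAs) and 1.57 (all members). For the miR-181a/b loci the value is that of 1 strand, mmu-miR-181a-5p: its medium effect, −0.74, was −1.15 with TMM and −1.12 with DESeq2 factors, and over all 6 members the median was −0.51. By stage, 0.61 became 0.38 over all 6. Members higher in 2iL at both stages numbered 1 with either of these factors and 2 without those 5 miRNAs, instead of 3. Counts of miRNAs called by limma, 0 by stage and 0 by medium, were 39 and 64 with edgeR, 50 and 80 with DESeq2, 45 and 74 with TMM-scaled values, 99 and 130 without a filter on reads, and 0 and 39 with edgeR on library totals, the last chosen after seeing the data. No tested member passed the threshold in limma, so none could be lost. Of 69 values for the 7 tested members under these alternatives, 18 passed and none changed sign. The cause was not tested. No replicate could be left out, since each group was 1 library. The fit with medium as a term already pairs each ELA library with the ES library of its medium, and no replicate numbers allow another pairing. Depth limits the 3p strands of miR-181a, miR-181b and miR-181d most, in ELA 2iL above all.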
